A study of Rattus norvegicus with 8 samples.

Results

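The genes described here encode proteins that build the node of Ranvier and the domains beside it in myelinated axons. They are Nfasc, Cntn1, Cntn2, Cntnap1, Cntnap2, Nrcam, Gldn, Ank3, Sptbn4 and Epb41l3, taken by name from the deposited count table. All 10 were found among its 22601 gene names, and all 10 had enough counts to be tested. RNA came from sciatic nerves of rats at day 15 after surgery. In one group the nerve had undergone chronic constriction injury (CCI), in which loose ligatures around the nerve produce a model of neuropathic pain. The other group had a sham operation. Each group had 4 polyA RNA libraries, numbered 1 to 4, and no allele or drug is named for either. The sources used here give no strain, age or sex. They also do not say that libraries came from separate rats, so every p-value refers to the variation among these libraries, some of which may be technical.

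The node is the gap between adjacent myelin segments, where sodium channels are clustered and the action potential is renewed. Neurofascin (Nfasc) and NrCAM (Nrcam) are adhesion molecules there, gliomedin (Gldn) is the ligand that Schwann cells lay down over them, and ankyrin-G (Ank3) and beta-IV spectrin (Sptbn4) tie them to the axonal skeleton. At the flanking paranode, contactin (Cntn1) and Caspr (Cntnap1) on the axon bind a glial form of neurofascin, and protein 4.1B (Epb41l3) anchors Caspr from inside. At the juxtaparanode, under the compact myelin, TAG-1 (Cntn2) and Caspr2 (Cntnap2) hold potassium channels in place. Nfasc therefore serves both node and paranode, and a count per gene does not separate its neuronal and glial forms. A nerve segment contains axons and Schwann cells but no neuronal cell bodies, so the transcripts of neuronal genes in it are those carried in axons or made by other cells.

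RefSeq promoter windows (build GRCr8, 250 bases before to 50 after an annotated start) were at hand for 7 of the 10 genes, in 8 windows. The counts were made on another build, Rnor_6.0, so these sequences show the genes and not the measured reads. Shown are both windows of Nfasc, which fell most, that of Gldn, the most abundant of the 10 per length in sham nerve, that of Epb41l3, which also fell, and that of Cntn1, which was the 1 gene that rose. Letters in capitals mark a match to a searched motif.
Nfasc, chr13:46701115-46701414, minus strand: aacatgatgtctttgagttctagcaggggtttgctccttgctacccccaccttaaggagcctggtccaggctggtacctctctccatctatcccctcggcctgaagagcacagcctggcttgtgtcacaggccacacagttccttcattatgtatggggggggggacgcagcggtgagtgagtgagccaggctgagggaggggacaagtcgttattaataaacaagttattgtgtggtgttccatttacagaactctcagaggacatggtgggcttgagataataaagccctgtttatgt
Nfasc, chr13:46627799-46628098, minus strand: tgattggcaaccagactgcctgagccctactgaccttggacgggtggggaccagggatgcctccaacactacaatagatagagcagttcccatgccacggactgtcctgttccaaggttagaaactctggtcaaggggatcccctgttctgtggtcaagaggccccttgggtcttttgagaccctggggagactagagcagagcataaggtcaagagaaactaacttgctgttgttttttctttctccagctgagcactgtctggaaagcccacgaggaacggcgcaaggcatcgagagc
Gldn, chr8:63575020-63575319, plus strand: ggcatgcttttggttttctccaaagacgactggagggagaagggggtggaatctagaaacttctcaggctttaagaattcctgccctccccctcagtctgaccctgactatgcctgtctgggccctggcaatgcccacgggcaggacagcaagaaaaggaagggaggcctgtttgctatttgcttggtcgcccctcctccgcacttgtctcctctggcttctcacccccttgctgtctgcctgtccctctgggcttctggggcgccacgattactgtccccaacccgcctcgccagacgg
Epb41l3, chr9:116583010-116583309, plus strand: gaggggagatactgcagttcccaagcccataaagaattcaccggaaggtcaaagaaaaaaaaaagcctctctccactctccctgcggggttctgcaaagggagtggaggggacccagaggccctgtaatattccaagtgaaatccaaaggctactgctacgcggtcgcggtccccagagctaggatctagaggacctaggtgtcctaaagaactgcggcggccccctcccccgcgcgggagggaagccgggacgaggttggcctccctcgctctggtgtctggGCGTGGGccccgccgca
Cntn1, chr7:125252060-125252359, plus strand: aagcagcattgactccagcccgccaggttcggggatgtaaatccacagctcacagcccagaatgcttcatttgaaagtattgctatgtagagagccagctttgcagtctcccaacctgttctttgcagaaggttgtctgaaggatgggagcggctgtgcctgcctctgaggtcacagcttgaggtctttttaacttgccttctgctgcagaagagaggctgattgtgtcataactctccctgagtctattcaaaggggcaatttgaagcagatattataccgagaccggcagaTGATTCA

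Both strands were searched for motifs of 4 factor families. The EGR motif, GCGTGGG, occurred in the windows of Epb41l3 and Sptbn4, and in 4.33% of 33469 RefSeq windows of 300 bases. The AP-1 motif, TGANTCA, occurred in that of Cntn1, near the end of the window, and in 7.33% of all windows. For SOX factors one motif was ACAAAG, present in 18.8% of all windows, and another was ACAATG, present in 13.2%. The TEAD motif was GGAATG, present in 14.2%. None of the matches overlapped another. None of the 8 windows held a SOX or TEAD motif, and those of Nfasc and Gldn held none of the motifs. A match describes the letters and does not show that a factor bound there.

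Most of the 10 genes were lower in the constricted nerve, by amounts between 1.57-fold and 11.5-fold, and 1 was higher. In edgeR's quasi-likelihood test, with Benjamini-Hochberg adjustment over 15763 genes and a threshold of 0.05, 8 fell, Cntn1 rose and Cntn2 did not pass. The injury changed 68.4% of all genes tested, with 32.2% lower and 36.2% higher. A fall of at least 2-fold was seen for 5 of the 10, against 13.9% of all genes. The median log2 fold change was -0.94 over the 10 genes and 0.05 over all genes tested. For 8 of the 10 the values of the groups did not overlap, against 64.8% of all genes. In bulk nerve, fewer cells of a type and less RNA per cell cannot be told apart.

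**Figure D1:**
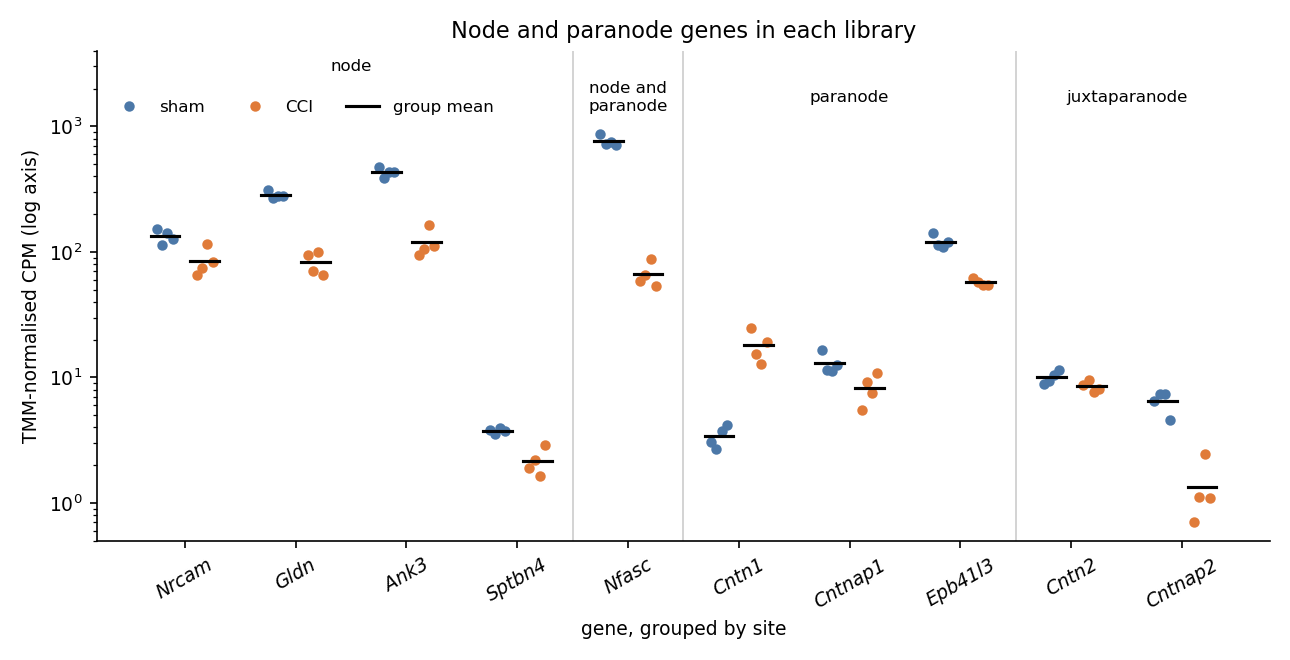
TMM-normalised CPM (read counts brought to a common library size with edgeR's TMM factors) of each gene in the 4 sham and 4 CCI libraries, on a log axis, with group means as bars and genes grouped by site. The CCI points lie below the sham points for 7 genes, above them for Cntn1, and overlap them for Nrcam and Cntn2.

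Nfasc showed the largest fall of the 10. Its level in TMM-normalised CPM was 874, 726, 751 and 709 in sham 1 to 4 and 58.7, 65.5, 88.0 and 53.5 in CCI 1 to 4. Every CCI library was thus far below every sham library, with CCI 3 the highest of its group. The mean went from 765 ± 74.7 to 66.4 ± 15.2 CPM (SD, n = 4), which left 8.68% of the sham level. The log2 fold change was -3.53 (SE 0.16; edgeR adjusted p = 3.90e-08). By the root mean square difference of mean-centred log2 CPM over the 8 libraries, the profiles of Fmn2, a formin (0.0746), and Pmp2, a lipid-binding myelin protein (0.0882), were among the 3 most like that of Nfasc of 11655 other genes. Their log2 fold changes were -3.58 and -3.39.

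Of the genes of the node alone, gliomedin and ankyrin-G fell by similar amounts. Gldn had 314, 267, 279 and 279 CPM in sham 1 to 4 and 95.2, 70.5, 99.8 and 65.8 CPM in CCI 1 to 4. The groups stood apart, and the mean went from 285 ± 20.03 to 82.8 ± 17.2 CPM (SD, n = 4), a fall of 3.44-fold (log2 fold change -1.78, SE 0.14; edgeR adjusted p = 1.46e-06). The profiles most like that of Gldn, by the same measure, were those of Egfl8 (0.0849), Lrrc4b (0.0985) and Otop1 (0.108), with log2 fold changes of -1.77, -1.69 and -1.85. Ank3, whose product links channels and adhesion molecules to spectrin, had 476, 390, 432 and 434 CPM in sham 1 to 4. In CCI 1 to 4 it had 94.7, 106, 164 and 111 CPM, all below the sham range, with CCI 3 again the highest. Its fall was 3.64-fold (log2 fold change -1.87, SE 0.16; edgeR adjusted p = 5.19e-06).

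Nrcam and Sptbn4 fell less. Nrcam had 152, 114, 141 and 127 CPM in sham 1 to 4 and 65.4, 74.0, 116 and 83.4 CPM in CCI 1 to 4, so that CCI 3 lay inside the sham range. Its fall of 1.58-fold (log2 fold change -0.66, SE 0.17; edgeR adjusted p = 0.00761) did not pass with scaling by library totals only (log2 fold change -0.42; edgeR adjusted p = 0.0569). Sptbn4, the spectrin of the nodal skeleton, was a low transcript, with 77 to 171 counts per library. It had 3.83, 3.53, 3.97 and 3.77 CPM in sham 1 to 4 and 1.92, 2.22, 1.64 and 2.92 CPM in CCI 1 to 4. The ranges did not meet, and the mean fell 1.74-fold (log2 fold change -0.80, SE 0.21; edgeR adjusted p = 0.00580), a call lost in limma on log2(FPKM + 0.1) (limma adjusted p = 0.0562). FPKM, as deposited, is the count scaled by gene length and library total.

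The paranodal genes did not move together. Cntn1, the axonal contactin, had 3.08, 2.68, 3.72 and 4.21 CPM in sham 1 to 4 and 24.9, 15.3, 12.8 and 19.2 CPM in CCI 1 to 4. Every CCI library exceeded every sham library, with CCI 1 the highest. The mean went from 3.42 ± 0.676 to 18.04 ± 5.31 CPM (SD, n = 4), a rise of 5.26-fold (log2 fold change 2.40, SE 0.23; edgeR adjusted p = 5.61e-06). Its partner Cntnap1 had 16.5, 11.5, 11.3 and 12.5 CPM in sham 1 to 4 and 5.47, 9.28, 7.51 and 10.8 CPM in CCI 1 to 4. The ranges came close, the highest CCI library (CCI 4) being just under the lowest sham library (sham 3). Cntnap1 fell 1.57-fold (log2 fold change -0.65, SE 0.21; edgeR adjusted p = 0.0170). That call was lost with library totals only (log2 fold change -0.42; edgeR adjusted p = 0.0929) and in limma on log2(FPKM + 1) or log2(FPKM + 0.1) (limma adjusted p = 0.0877 and 0.0920). In RefSeq's GRCr8 the receptor gene Ccr10 overlaps Cntnap1, and the strand setting of the counting is not given in the sources used here. Ccr10 held 212 counts over all 8 libraries.

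Epb41l3, the paranodal anchor, fell in a narrow range. It had 140, 114, 109 and 119 CPM in sham 1 to 4 and 61.5, 58.0, 54.5 and 54.3 CPM in CCI 1 to 4. No library of one group came near the other, and the mean went from 121 ± 13.8 to 57.1 ± 3.40 CPM (SD, n = 4), a log2 fold change of -1.08 with an SE of 0.08 (edgeR adjusted p = 9.83e-07). Protein 4.1B also occurs at the juxtaparanode and in other tissues.

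The juxtaparanodal pair divided. Cntnap2 had 6.5001, 7.35, 7.32 and 4.61 CPM in sham 1 to 4 and 0.708, 1.12, 2.47 and 1.09 CPM in CCI 1 to 4. CCI 3 was the highest of its group and sham 4 the lowest of its own, and the groups stayed apart. The fall was 4.79-fold (log2 fold change -2.26, SE 0.36; edgeR adjusted p = 0.000245), resting on 41 to 116 counts in the CCI libraries. Cntn2, by contrast, had 8.79, 9.44, 10.4 and 11.5 CPM in sham 1 to 4 and 8.77, 9.58, 7.72 and 8.12 CPM in CCI 1 to 4. The ranges overlapped, and the gene did not pass (log2 fold change -0.23, 95% interval -0.50 to 0.04; edgeR adjusted p = 0.114). The interval leaves room for a fall of that size but not for one like that of Cntnap2. By the measure used for Nfasc, the profiles most like that of Cntn2 were those of Oraov1 (0.0730), Ift172 (0.0792) and Zbtb11 (0.0808), with log2 fold changes of -0.19, -0.23 and -0.26.

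**Figure D2:**
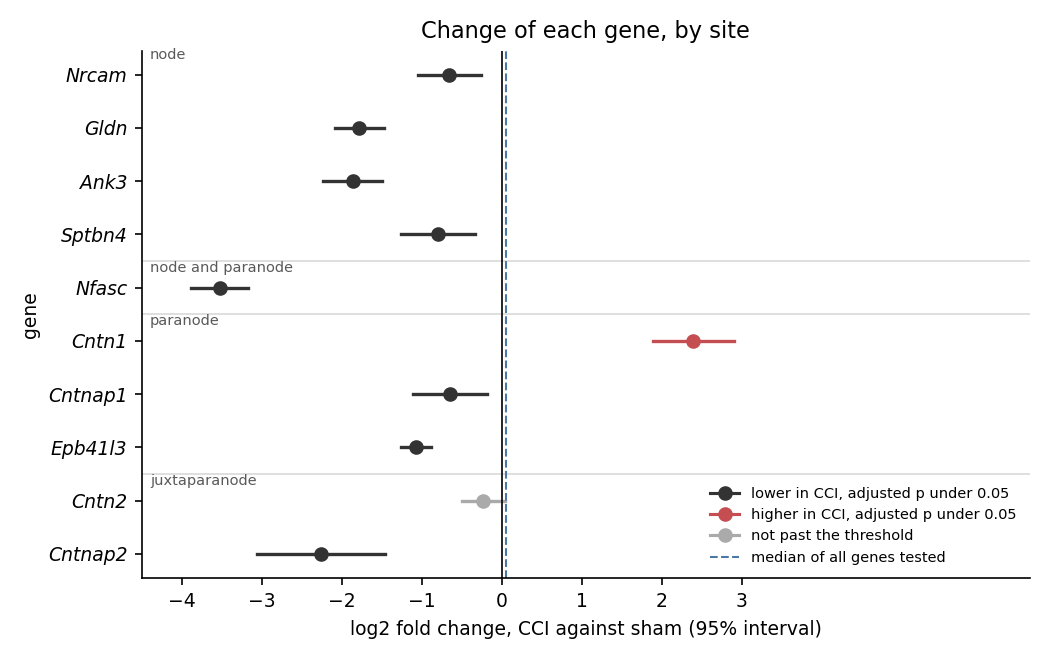
Log2 fold change (CCI against sham) of each gene with its 95% interval from the edgeR fit, grouped by site, with the median of all genes tested (0.05) as a dashed line. The 4 nodal genes lie between -1.87 and -0.66, Nfasc at -3.53, the 3 paranodal genes between -1.08 and 2.40, and the juxtaparanodal pair at -2.26 and -0.23.

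By site, all 4 genes of the node alone fell, with log2 fold changes from -1.87 to -0.66. Of the 3 paranodal genes 2 fell and 1 rose, from -1.08 to 2.40. Of the juxtaparanodal pair 1 fell. Nfasc, of both node and paranode, fell by more than any of these. Of all genes tested, 32.2% were lower and 36.2% higher. With so few genes at a site, these counts do not set the sites apart, and no test of the sites was made.

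Whether partners of one site changed by unequal amounts was tested with 6 ratios of known binding or shared site. Each was taken within a library as the difference of log2(CPM + 0.5). The ratios were chosen with earlier results of these data known and use the same counts as the gene tests. Their p-values therefore add no independent support. Cntn1 lay wholly above sham and Cntnap1 wholly below it, so no overlap was possible for their ratio. The added constant pulls the ratio of low genes toward 0. With 4 libraries against 4, the smallest p that an exact two-sided permutation test can give is 0.0286, and p-values were adjusted over the 6 ratios. Cntnap1 to Cntn1, the axonal pair of the paranode, went from 1.78 ± 0.375 to -1.08 ± 0.677 (SD, n = 4), a 7.24-fold shift of the ratio with no overlap (exact p = 0.0286, adjusted p = 0.0343). Per length, in deposited FPKM, Cntnap1 was the higher of the pair in all 4 sham libraries (1.77 to 2.57, against 0.331 to 0.519 for Cntn1). In all 4 CCI libraries Cntn1 was the higher (1.85 to 3.49, against 0.991 to 2.00 for Cntnap1). Nfasc to Nrcam went from 2.52 ± 0.107 to -0.34 ± 0.226, a 7.25-fold shift, also with no overlap (exact p = 0.0286, adjusted p = 0.0343).

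Of the other ratios, 3 also separated the groups, each with an exact p of 0.0286 and an adjusted p of 0.0343. Cntnap2 to Cntn2 shifted 3.38-fold, from -0.61 ± 0.413 to -2.37 ± 0.637, a difference of -1.76 that became -1.16 with 2 in place of 0.5 added to the CPM. Gldn to Nrcam shifted 2.17-fold, from 1.09 ± 0.105 to -0.02 ± 0.390. Sptbn4 to Ank3 moved the other way by 2.28-fold, from -6.66 ± 0.0873 to -5.47 ± 0.546, since the spectrin fell less than its ankyrin. Epb41l3 to Cntnap1 did not pass (3.18 ± 0.0868 in sham, 2.75 ± 0.463 in CCI; exact p = 0.143, adjusted p = 0.143), and its CCI values of 2.28 to 3.38 enclosed the sham range of 3.05 to 3.25. Without CCI 1 that ratio differed by -0.63 in place of -0.42 (exact permutation test, adjusted p = 0.0286). For the 5 ratios that passed, leaving out any 1 library kept the direction of the difference and left the groups without overlap. With fewer libraries the exact test has few arrangements, so a call kept or lost there was not read as a result about the library left out.

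**Figure D3:**
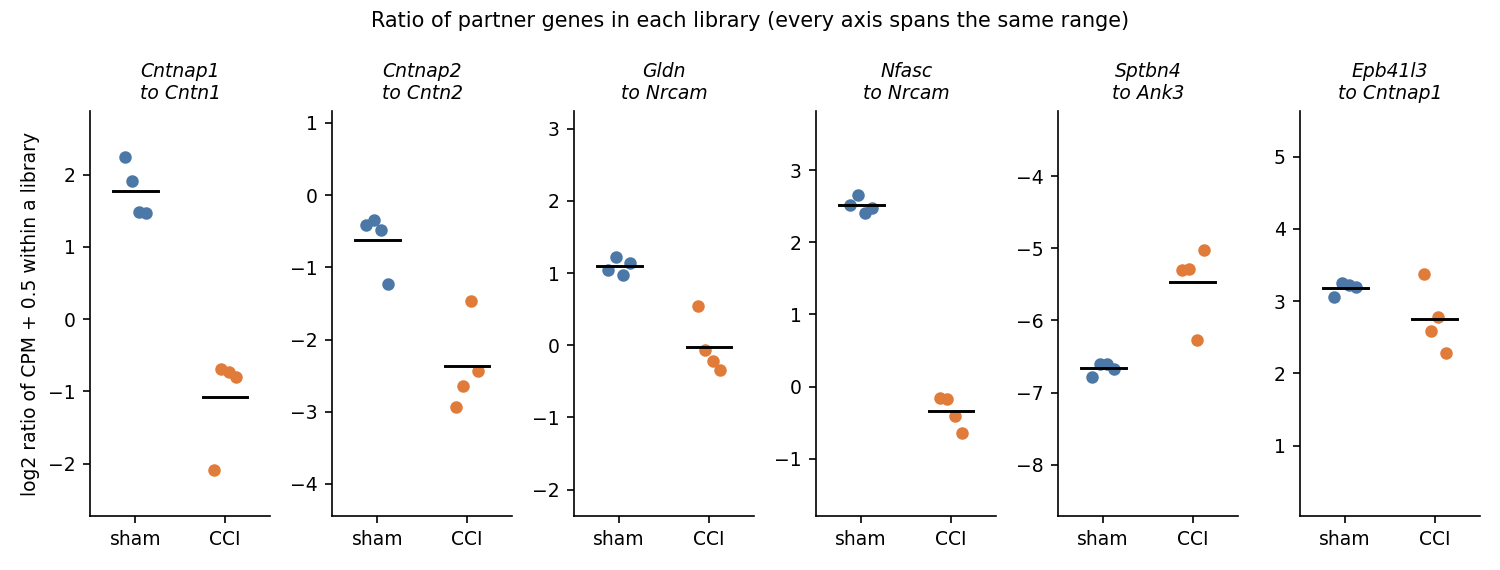
Log2 ratio of partner genes (CPM + 0.5) in each library, with sham on the left, CCI on the right and group means as bars. The groups do not overlap for the first 5 ratios, and the CCI values of Epb41l3 to Cntnap1 enclose those of sham.

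The order of the genes by level changed too. In sham nerve, mean deposited FPKM ran from Gldn (110 ± 6.69) through Nfasc (67.0 ± 5.83), Ank3 (39.5 ± 2.81), Epb41l3 (16.3 ± 1.74) and Nrcam (12.2 ± 1.34) to Cntnap1 (2.04 ± 0.362; SD, n = 4), with no overlap between neighbours. Below these stood Cntn2 (0.960 ± 0.118), Cntnap2 (0.771 ± 0.152), Cntn1 (0.418 ± 0.0834) and Sptbn4 (0.392 ± 0.0157), where Cntn2 overlapped Cntnap2 and Cntn1 overlapped Sptbn4. The contactins, the Caspr genes and beta-IV spectrin thus formed the lower end. In CCI nerve Gldn still led (37.5 ± 7.90 FPKM), and Ank3 (12.7 ± 3.54), Nrcam (9.06 ± 2.53), Epb41l3 (8.998 ± 0.405) and Nfasc (6.81 ± 1.65) overlapped in a chain. Nfasc had gone from rank 2 to rank 5, and Cntn1 from rank 9 to rank 6 (2.57 ± 0.722). Cntn1 overlapped Cntnap1 (1.52 ± 0.429), which overlapped Cntn2 (0.955 ± 0.0805), and Sptbn4 (0.264 ± 0.0669) overlapped Cntnap2 (0.190 ± 0.112).

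Within the injured group, CCI 3 had the highest level of Nfasc, Gldn, Ank3, Nrcam and Cntnap2, 5 of the 10 genes, and the lowest of Cntn1, Cntn2 and Sptbn4. Markers of cells in the nerve are given beside these results, here and in the next paragraph. Counts of markers that fell or rose stand beside 32.2% lower and 36.2% higher among all genes tested. The 8 markers of myelinating Schwann cells all fell, and summed to 92050 to 108372 CPM in sham and 6761 to 10391 CPM in CCI libraries, with CCI 3 the highest and CCI 4 the lowest of the injured group. Of 4 markers shared by all Schwann cells, 3 fell, with sums of 3913 to 4854 CPM in sham and 825 to 1346 CPM in CCI, again highest in CCI 3. The exception was Erbb3 (log2 fold change -0.45; edgeR adjusted p = 0.0504), with 323 to 385 CPM in sham and 192 to 369 CPM in CCI. Sox10, which defines the lineage, was at 327 to 332 CPM in sham and 71.5 to 120 CPM in CCI. The 3 perineurial markers, Itgb4, Cldn1 and Slc2a1, fell as well (log2 fold changes -3.04, -2.14 and -1.61). Their sums were 3922 to 5442 CPM in sham and 578 to 850 CPM in CCI, likewise highest in CCI 3. Of 3 fibroblast markers, Dcn fell, Pdgfra rose and Col1a1 did not pass. The part of these cells in the falls of the 10 genes was not tested.

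Axonal and neuronal markers went both ways, with 6 of 9 tested lower and 3 higher. The 11 markers looked for summed to 94.1 to 110 CPM in sham and 97.8 to 131 CPM in CCI. The neurofilament genes Nefl and Nefm and the tubulin gene Tubb3 rose. The third neurofilament gene, Nefh, fell from 2.23 ± 0.308 to 0.910 ± 0.0986 CPM (SD, n = 4; edgeR adjusted p = 0.000577), and Prph, Uchl1, Stmn2, Snap25 and Syt1 also fell. Nefl had 7.53, 3.18, 6.44 and 6.81 CPM in sham 1 to 4 and 23.7, 44.1, 21.8 and 32.5 CPM in CCI 1 to 4. Of the 3 axonal markers that rose, Tubb3 was highest in CCI 1, as was Cntn1, while Nefl and Nefm were highest in CCI 2. The neuronal RNA-binding genes Elavl4 and Rbfox3 were too low to be tested. The 6 macrophage markers all rose, with sums of 225 to 303 CPM in sham and 1324 to 1468 CPM in CCI. The 3 endothelial markers rose too, from sums of 318 to 373 CPM to sums of 596 to 724 CPM. Of 3 adipocyte markers 1, Fabp4, rose. The 4 skeletal muscle markers summed to 1503 CPM in CCI 2 and 377 CPM in sham 2, against 10.4 to 304 CPM and 12.2 to 18.2 CPM in the other libraries of those groups. Without CCI 2 and sham 2, 8 of the 10 genes were still lower and 1 higher. In CCI 1, where Cntn1 was highest, the marker sums of macrophages, endothelial cells, fibroblasts and oligodendrocytes (described below) were also the highest of the CCI group. The sums of the other marker lists, the axonal one included, were highest in CCI 2, CCI 3 or CCI 4. Which of these cells gave the added Cntn1 transcripts was not tested.

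The rest of the machinery was described by lists. Each count called in a list is to be read against all genes tested, of which 32.2% were lower and 36.2% higher. Among ion channels and transporters of the node, 2 of 14 tested rose and 5 fell (median log2 fold change -0.22, against 0.05 for all genes tested). The main sodium channel of the mature node, Scn8a, went from 2.43 to 1.65 CPM and did not pass (log2 fold change -0.56, SE 0.28; edgeR adjusted p = 0.0970). The 2 that rose were Slc8a1, a sodium-calcium exchanger, from 33.5 ± 2.74 to 146 ± 10.4 CPM, and Scn3b, a sodium channel beta subunit, from 4.59 ± 1.01 to 14.4 ± 5.34 CPM (SD, n = 4; edgeR adjusted p = 7.34e-09 and 0.000226). Lowest in p among the falls were Kcnk2, the TREK-1 potassium channel, from 22.3 ± 3.61 to 4.62 ± 0.600 CPM, and Scn9a, a sodium channel of nociceptors, from 10.9 ± 2.02 to 2.704 ± 1.13 CPM (2.14e-07 and 0.000123).

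Of 10 scaffold genes of the node, 6 were lower and 3 higher, with a median log2 fold change of -0.84. Ank2, or ankyrin-B, went from 273 ± 14.3 to 109 ± 5.82 CPM and Sptan1, the common alpha spectrin, from 1794 ± 110 to 677 ± 56.3 CPM (SD, n = 4; edgeR adjusted p = 3.66e-08 and 1.30e-07). The 3 that rose were Camk2d, a calcium-dependent kinase (log2 fold change 0.51, SE 0.07), Tnik, a kinase (0.34, SE 0.11), and Fgf13, which binds sodium channels (1.12, SE 0.45). Tnik lost its call without CCI 1, CCI 3, sham 2 or sham 3 (edgeR adjusted p = 0.0547 to 0.0733), and Fgf13 on leaving out any library but CCI 1 and sham 2 (0.0592 to 0.202). Without CCI 2 the log2 fold change of Fgf13 was 0.68. Without CCI 3 or without sham 3, 1 of the 3 rises was left.

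Genes of the Schwann cell microvilli and the nodal matrix were divided, with 9 of 18 tested lower and 5 higher (median log2 fold change -0.23; 8 higher with library totals only). Hapln2, a link protein of the nodal matrix, fell furthest, with 20.5, 24.6, 28.02 and 18.9 CPM in sham 1 to 4 and 0.725, 0.569, 0.448 and 0.671 CPM in CCI 1 to 4 (log2 fold change -5.24, SE 0.19; edgeR adjusted p = 7.34e-09). Hapln2 is also a marker of oligodendrocytes, the myelinating cells of the central nervous system. Of 4 such markers, Hapln2, Mobp and Opalin fell (log2 fold changes -5.09 and -3.82 for the last pair), and Mog did not pass (6.24 CPM in sham, 6.07 CPM in CCI). The sums of the 4 were 27.2 to 36.6 CPM in sham and 6.69 to 6.85 CPM in CCI libraries. Hapln2 itself made up most of each sham sum, so the fall of the sums is largely its own. Mobp went from 1.91 to 0.0527 CPM and Opalin from 0.660 to 0.0454 CPM. The part of oligodendrocytes in the fall of Hapln2 was not tested. Slit2, a guidance protein, went from 297 ± 16.6 to 101 ± 8.82 CPM. Among the rises, the matrix proteins Tnc, from 112 ± 23.4 to 933 ± 151 CPM, and Vcan, from 121 ± 26.4 to 908 ± 192 CPM, were the largest. Msn, the moesin of the microvilli, went from 196 ± 5.16 to 369 ± 19.2 CPM (SD, n = 4; edgeR adjusted p = 3.13e-07), while its relatives Ezr and Rdx did not pass (log2 fold changes 0.18 and 0.07). The glypican Gpc1 rose by 1.33 (SE 0.16) and the proteoglycan Bcan by 1.14 (SE 0.41) on the log2 scale. Bcan was at 0.176 CPM in sham and lost its call on leaving out any library but CCI 3 and sham 3 (edgeR adjusted p = 0.0531 to 0.0970).

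Adhesion genes of the paranode and internode moved mostly one way, with 15 of 17 lower and 0 higher (median log2 fold change -1.69). By edgeR at an unadjusted p under 0.05 and by DESeq2, 0 were higher as well, while 1 was higher with library totals only, in limma on FPKM or without CCI 4. Cadm3, a nectin-like protein of the axon that binds a partner on the Schwann cell, went from 1011 ± 45.1 to 153 ± 18.6 CPM, and Cldn19, a claudin of the Schwann cell's own tight junctions, from 1036 ± 75.7 to 96.4 ± 14.5 CPM (SD, n = 4; edgeR adjusted p = 6.04e-09 for each). In the juxtaparanodal list, which includes Epb41l3, 12 of 17 tested fell and 3 rose (median log2 fold change -0.59). Of all genes tested, 32.2% were lower and 36.2% higher. Mpp6, a membrane scaffold, went from 124 ± 12.9 to 44.1 ± 2.25 CPM. Kcna1, the potassium channel that Caspr2 holds in place, had 328 to 458 CPM in sham and 23.5 to 40.4 CPM in CCI libraries. The 3 that rose were the secreted proteins Lgi2 (log2 fold change 3.54, SE 0.57) and Lgi3 (1.63, SE 0.35) and the channel subunit Kcnab2 (0.40, SE 0.09), all with edgeR adjusted p of at most 0.00267.

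**Figure D4:**
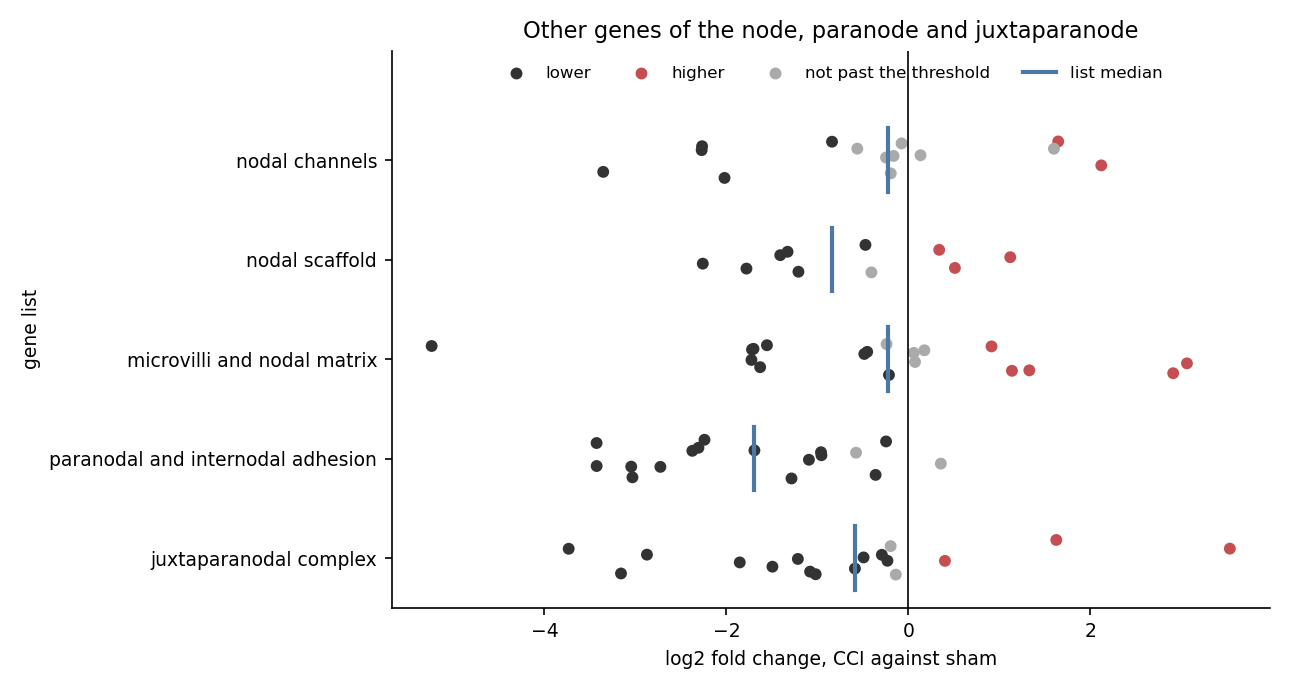
Log2 fold change (CCI against sham) of every tested gene in the 5 lists of other nodal, paranodal and juxtaparanodal genes, with list medians as bars. The paranodal and internodal list has no gene that rose past the threshold, and the nodal channels spread on both sides of 0.

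Relatives of the 10 genes were compared by family, again beside 32.2% lower and 36.2% higher among all genes tested. The family counts include those of the 10 genes that belong to each family, and some relatives, such as L1cam and Ank2, were also counted in the lists above. All 4 genes of the L1 family fell, L1cam from 70.8 ± 12.9 to 33.2 ± 8.67 CPM (SD, n = 4; edgeR adjusted p = 0.000881), and Nfasc by the most. Of 4 contactin genes tested, Cntn5 fell from 0.564 to 0.0643 CPM, and Cntn3 rose from 0.201 to 0.461 CPM beside Cntn1. Leaving out CCI 1, 2 or 3 or sham 1, 2 or 4 ended the call of Cntn3 (edgeR adjusted p = 0.0540 to 0.126). Of 3 Caspr genes tested, Cntnap1 and Cntnap2 fell. Among the ankyrins, Ank2 and Ank3 fell and Ank1 rose (log2 fold change 1.44, SE 0.55), a call lost without CCI 2 or sham 1, 2 or 3 (edgeR adjusted p = 0.0692 to 0.182). Ank1 was at 4.78 CPM in CCI 2, the library richest in muscle markers, and at 1.23 to 1.51 CPM in the other CCI libraries. In sham 2, the sham library richest in muscle markers, Ank1 was the lowest of its group (0.424 CPM, against 0.488 to 1.43 CPM). The log2 fold change of Ank1 was 0.71 without CCI 2 and 0.52 without CCI 2 and sham 2. The part of muscle in the rise of Ank1 was not tested. Of 6 protein 4.1 genes, 5 fell and 0 rose, with Epb41l2 going from 810 ± 28.4 to 337 ± 32.1 CPM (edgeR adjusted p = 1.87e-07), and with library totals only or in limma on FPKM 1 rose. By edgeR at an unadjusted p under 0.05 and by DESeq2, 0 of the 6 rose.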

How the data were processed

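The authors deposited raw counts per gene and FPKM values for 8 libraries of rat sciatic nerve. In the deposited FPKM each count is scaled by gene length and library total. The submitters' processing notes name HISAT2, HTSeq and fastp, further DESeq2 with R 3.2.0, and the build Rnor_6.0. For annotation, strand setting and filters the sources used here give nothing. Total counts were 42541217 to 54559292 per library.

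Counts were tested with edgeR 4.0.16 (R 4.3.3, robust quasi-likelihood fit, filterByExpr, TMM), CCI against sham without covariates. A gene was called at a Benjamini-Hochberg adjusted p under 0.05 over 15763 genes. Standard errors are the coefficient over the square root of F. The script was tested on simulated data. Ratios of partner genes were tested by exact permutation.

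The 10 genes, the lists and the ratios were chosen with earlier results of these data known. Named by rule were the 10 genes, the 2 called genes of smallest p in each direction of a list, any called gene against a list's direction, and the 3 profiles most alike (at least 5 CPM on average), of which 1 is not reported here. Scn8a, Ezr, Rdx and the marker genes were named after their values were seen. Alternatives were other scalings, DESeq2 1.42.0, other filters, limma 3.58.1 on FPKM, a replicate block and leaving out libraries.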

Additional observations from a re-analysis of the deposited data

Results flagged for a closer look

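The ratio of Cntnap1 to Cntn1 in CCI 1 was -2.09 on the log2 scale, far below the other 3 injured libraries (-0.80 to -0.69). That library had the lowest Cntnap1 and the highest Cntn1 of its group. The ratio of Cntnap2 to Cntn2 in sham 4 was -1.23, against -0.48 to -0.34 in the other 3 sham libraries, where sham 4 had the lowest Cntnap2 and the highest Cntn2. Each stood out by its gap to the nearest library relative to the range of its group. Of 32 groups of 4 values examined, 2 stood out in this way, and chance alone gives about 1 in 20.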

How the results depend on the processing

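With 1 library left out, the 10 genes kept 8 lower and 1 higher, with a median log2 fold change of -1.03 to -0.90. The replicate block changed none of these calls (8 lower, 1 higher, median -0.95). Same-numbered libraries of the groups correlated at -0.03 to 0.34 in their deviations, and differently numbered ones at -0.34 to 0.17. The highest was CCI 2 with sham 2. The labels do not say that the numbers pair libraries, so they were not taken as pairs. With library totals only the median was -0.71, in limma on log2(FPKM + 1) it was -0.49 and on log2(FPKM + 0.1) it was -0.65, while the median of all genes tested rose from 0.05 to 0.27, 0.18 and 0.26. Totals only left 6 of the 10 lower and turned the split of all calls from 5708 higher and 5080 lower to 7433 and 3682. Requiring 5 CPM or more in 4 libraries also left 6 lower, since Cntnap2 and Sptbn4 were not tested there.

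Differences in the log2 ratios of partners kept their direction in every setting run. Under a replicate block the exact sign-flip test could not pass (adjusted p = 0.150), with differences of -2.86 for Cntnap1 to Cntn1, -1.76 for Cntnap2 to Cntn2, -1.12 for Gldn to Nrcam, -2.86 for Nfasc to Nrcam and 1.19 for Sptbn4 to Ank3. Without CCI 2 and sham 2 they were -2.94, -1.58, -1.06, -2.87 and 1.15 (adjusted p = 0.120, too few libraries to pass). With 1 library left out they were -2.99 to -2.52, -2.06 to -1.57, -1.30 to -1.01, -2.92 to -2.76 and 1.04 to 1.46, and -0.63 to -0.27 for Epb41l3 to Cntnap1. Sptbn4, Cntnap2 in CCI and Cntn1 in sham rest on fewer than 200 counts per library, which limits their precision.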

Other observations

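Spectrins other than that of the node also fell. Of 7 spectrin genes tested, 5 fell and 0 rose (median log2 fold change -1.21), with 0 higher also by edgeR at an unadjusted p under 0.05 and by DESeq2. Sptb, the spectrin first known from red cells, went from 768 ± 72.2 to 69.6 ± 11.6 CPM, and Sptbn5 from 442 ± 40.9 to 36.2 ± 8.40 CPM (SD, n = 4; edgeR adjusted p = 8.18e-09 and 4.44e-08). Both fell further than Sptbn4, whose log2 fold change was -0.80. Genes with an olfactomedin domain, to which gliomedin belongs, went both ways, with 4 of 8 tested lower and 3 higher (median log2 fold change -0.43). The shares among all genes tested, for these and the spectrins, were 32.2% lower and 36.2% higher.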
